A study of Pyrus pyrifolia with 12 samples.

Results

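Glutamate dehydrogenase gene27291 and asparagine synthetase gene656 are 2 of the 43732 genes counted in the skin of ripe pears (Pyrus pyrifolia). Both were chosen from their read counts in these libraries. gene27291 was picked for having no reads in Akibae and gene656 for its abundance, so the absence of the first from Akibae and the high level of the second are descriptions and were not tested. They are set beside every other gene whose best Swiss-Prot match is a glutamate dehydrogenase, an asparagine synthetase, a glutamine synthetase or a glutamate synthase, which made 32 genes in 4 families.

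Plants assimilate ammonium mainly through glutamine synthetase, which joins it to glutamate, and glutamate synthase, which passes the amide nitrogen of glutamine to 2-oxoglutarate and so makes glutamate. Asparagine synthetase moves the same amide nitrogen onto aspartate, and the product, asparagine, is a nitrogen-rich compound that plants store and carry in the phloem. Glutamate dehydrogenase, a mostly mitochondrial enzyme, interconverts glutamate with 2-oxoglutarate and free ammonium, and in plants it is known mainly for breaking glutamate down.

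The study compared the fruit skin of pear varieties with respect to russeting, the formation of a brown corky skin. Untreated fruit was picked at maturity in orchards in Yizheng, Jiangsu. Akibae was picked 120 days after full bloom, Nijisseiki at 135 days, and SuCui NO.1 and CuiYu at 105 days, so harvest day and variety cannot be told apart except between SuCui NO.1 and CuiYu. Each variety had 3 libraries, which the labels' protocols call biological replicates; the number of fruits in each is not stated there.

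The 12 libraries held 11981445 to 15136559 counts each. Markers of the epidermis and cuticle, 25 genes, summed to 14.7 to 18.0 FPKM (fragments per kilobase of transcript, scaled to depth) in Akibae, 23.9 to 99.3 FPKM in Nijisseiki, 48.2 to 80.3 FPKM in SuCui NO.1 and 182 to 198 FPKM in CuiYu. Of these markers 5 had no read in any library, among them 2 copies each of PROTODERMAL FACTOR 2 and ECERIFERUM 1. Vascular markers, 16 genes, summed to 4.66 to 19.6 FPKM in Akibae, 1.71 to 2.38 FPKM in Nijisseiki, 3.86 to 11.6 FPKM in SuCui NO.1 and 1.91 to 5.70 FPKM in CuiYu, and 2 copies of the cell-wall gene cellulose synthase A4 had no read. Green-tissue markers, 58 genes, summed to 1226 to 1738 FPKM in Akibae, 1497 to 3894 FPKM in Nijisseiki, 1462 to 3893 FPKM in SuCui NO.1 and 1671 to 1956 FPKM in CuiYu. In bulk skin, fewer cells of a type and less RNA per cell cannot be told apart, and the part of cell makeup in the results below was not tested. Nijisseiki replicate 1 stood apart: it correlated with its own replicates at 0.894 and 0.905 on the log2(CPM + 1) scale (CPM, counts scaled to library depth), whereas replicates 2 and 3 correlated at 0.966. It correlated about as well with the Akibae libraries, at 0.897 to 0.903, and at 0.873 to 0.885 with SuCui NO.1 and 0.852 to 0.864 with CuiYu, so its profile was no closer to its own variety than to Akibae. Whether its label is right was not tested, and Nijisseiki means and bounds stand for the libraries as labelled. In it 49 genes lay at or below 0.5 CPM that reached 10 CPM in replicates 2 and 3, against 0 to 6 such genes in any other library. Of these 49, 9 were also off in all Akibae libraries, 9 in all SuCui NO.1 libraries and 4 in all CuiYu libraries. Results for gene27291 and gene656 are given with and without Nijisseiki replicate 1, as are the other named values that it moved by more than 1.5 times.

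gene27291 lies on chromosome 17 from 17932543 to 17935183 on the plus strand, with a transcript of 1412 bases and no protein domain listed in the deposited annotation. It had 0 reads in each of the 3 Akibae libraries. In Nijisseiki it had 3, 347 and 261 reads, in SuCui NO.1 239, 492 and 319 reads, and in CuiYu 589, 489 and 447 reads. As a level, this was 0 CPM in Akibae, 14.5 ± 12.8 CPM in Nijisseiki, 26.5 ± 8.85 CPM in SuCui NO.1 and 36.9 ± 4.03 CPM in CuiYu (SD, n = 3 each). The Akibae libraries were at 0 throughout and Nijisseiki replicate 1, at 0.261 CPM, was close to them, while the other 8 libraries lay between 18.3 and 41.0 CPM. Epidermis markers were at their lowest of the 12 libraries in Akibae, at 14.7 to 18.0 FPKM, and summed to 99.3 FPKM in Nijisseiki replicate 1, beside 52.3 and 23.9 FPKM in replicates 2 and 3; their part in the level of gene27291 was not tested.

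**Figure D1:**
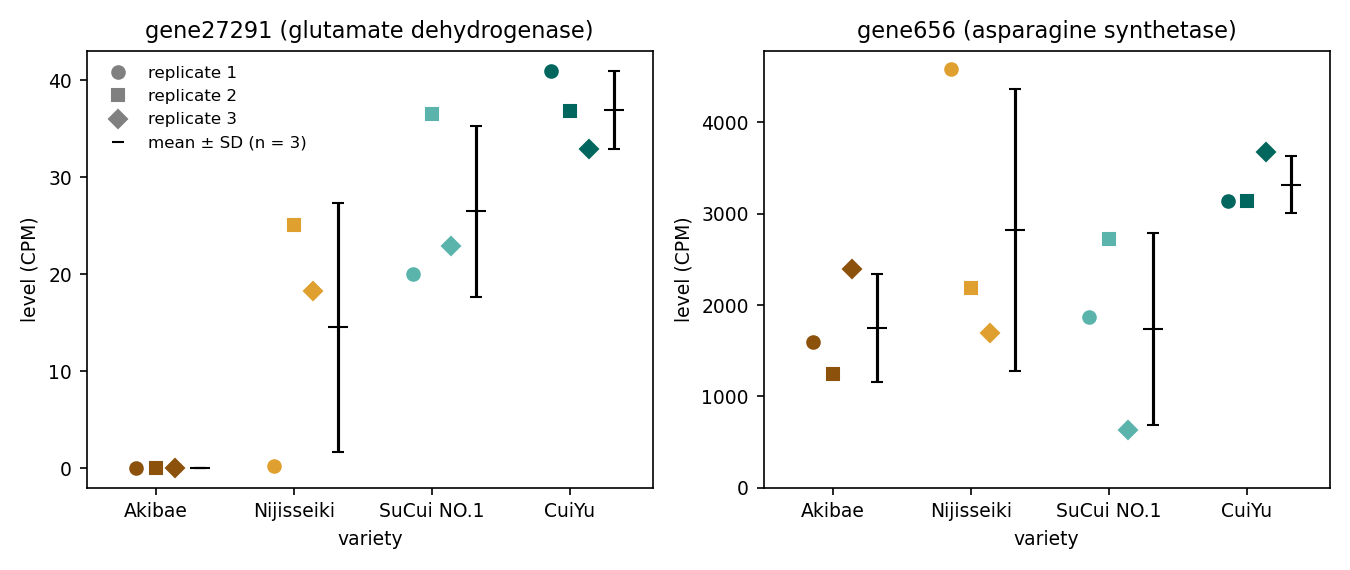
Level in CPM (y axis) of gene27291 (left) and gene656 (right) in each library of the 4 varieties (x axis), 1 symbol per replicate, with the mean ± SD of 3 libraries as a black bar. gene27291 is at 0 CPM in Akibae and at 0.261 CPM in Nijisseiki replicate 1, and gene656 runs between 629 and 4584 CPM with overlapping varieties except that CuiYu lies above every Akibae and SuCui NO.1 library.

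A count of 0 over the Akibae libraries allows up to 3 reads, or 0.0772 CPM, which covers counting error only. Against that limit the Akibae level was at least 188-fold lower than in Nijisseiki, at least 343-fold lower than in SuCui NO.1 and at least 477.9-fold lower than in CuiYu. The bound against Nijisseiki was 281-fold without its replicate 1 and 119.99-fold without replicate 2. It rests on replicates 2 and 3. Replicate 1 alone, with 3 reads or 0.261 CPM, gave 3.38-fold, which leaves out the counting error of those 3 reads. A count of 0 does not tell a silent gene from one that is missing or too different in sequence to be counted.

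Among the 3 varieties with reads, the order of the levels was CuiYu, SuCui NO.1, Nijisseiki, and no neighbours in that order differed beyond their spread. The difference of Nijisseiki against SuCui NO.1 was -0.86 ± 0.94 log2 units (SE; edgeR quasi-likelihood test with Benjamini-Hochberg adjustment over 26307 genes, adjusted p = 0.60). For Nijisseiki against CuiYu it was -1.34 ± 0.94 log2 units (adjusted p = 0.37) and for SuCui NO.1 against CuiYu -0.48 ± 0.93 log2 units (adjusted p = 0.76). Without Nijisseiki replicate 1 these became -0.29, -0.77 and -0.47 log2 units (edgeR adjusted p = 0.54, 0.13 and 0.23). Across the table, 12.4%, 15.4% and 17.4% of the genes tested were called in these 3 pairs at an adjusted p under 0.05. gene27291 was called in 0 of the 3 by edgeR and in 0 by DESeq2, with 0 unadjusted p-values under 0.05 by either tool.

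The genes directly beside gene27291 also had 0 reads in Akibae. gene27292, named for alpha-1,4-glucan-protein synthase 1, an enzyme family that acts on UDP-sugars for the cell wall, lies on the same strand and ends 297 bases before it. It had 0 reads in Akibae and in Nijisseiki, 2 reads in SuCui NO.1 and 53, 82 and 89 reads in CuiYu. Its level was at least 70.9-fold lower in Akibae than in CuiYu and at least 72.3-fold lower in Nijisseiki than in CuiYu. It passed the filter on low counts only through CuiYu, so these limits are a description with no test. gene27292 was counted almost only in CuiYu. It had 0 reads in replicates 2 and 3 of Nijisseiki and of SuCui NO.1, where gene27291 had 347, 261, 492 and 319 reads.

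On the other side, an unnamed transcript, without a gene ID of the annotation or a Swiss-Prot match, starts 689 bases after gene27291 on the same strand. It had 0 reads in Akibae, 0, 100 and 77 reads in Nijisseiki, 12, 65 and 44 reads in SuCui NO.1 and 168 reads in each CuiYu library. The libraries without reads of that transcript were thus those with 0 to 3 reads of gene27291. Akibae was at least 54.4-fold lower than Nijisseiki, or at least 81.7-fold without Nijisseiki replicate 1 and 34.9-fold without replicate 2, at least 38.8-fold lower than SuCui NO.1 and at least 158-fold lower than CuiYu. This transcript too passed the filter only through varieties other than Akibae, and these limits were not tested. The strand setting and the counting rule are unknown here, so reads running past the end of gene27291 were not separated from reads of that neighbour.

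One place farther out on each side, both genes had reads in Akibae. gene27293, a cytochrome P450 85A, named for enzymes of brassinosteroid synthesis, had 1.93, 2.07 and 1.13 CPM in Akibae, 0.522, 6.14 and 7.70 CPM in Nijisseiki, 1.59, 11.2 and 6.03 CPM in SuCui NO.1, with 104, 146 and 144 CPM in CuiYu. Its CuiYu libraries lay far above the rest, and Nijisseiki replicate 1 was the lowest of the 12. gene27293 was lower than in CuiYu by -6.26 log2 units in Akibae, -4.76 in Nijisseiki and -4.38 in SuCui NO.1 (edgeR adjusted p = 0.0012, 0.0038 and 0.0052), and these 3 calls held in all 18 alternative fits. gene27290, named for a tRNA methyltransferase, was read in every library and averaged 8.75 CPM in Akibae, 8.88 CPM in Nijisseiki, 3.16 CPM in SuCui NO.1 and 12.1 CPM in CuiYu. These 2 genes lie outside the rule for named genes and were chosen after their values were seen. The p-values of gene27293 are therefore a description and no independent test.

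**Figure D2:**
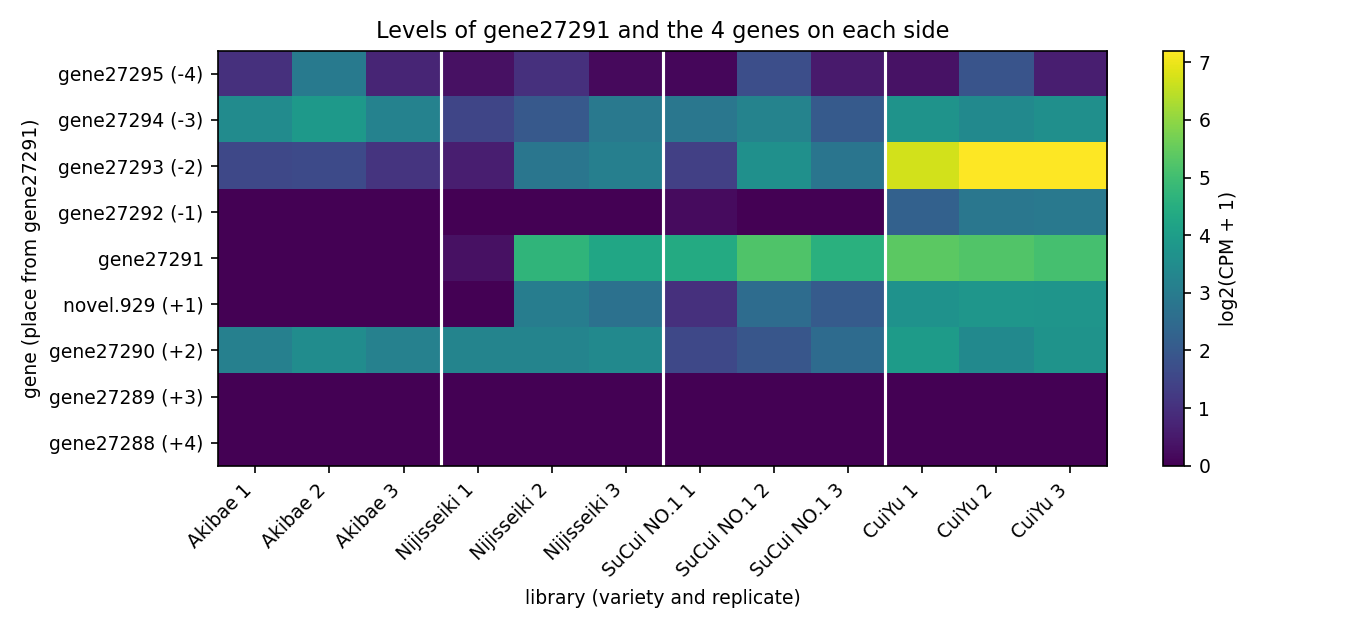
Heat map of log2(CPM + 1) for gene27291 and the 4 genes on each side of it (rows, in chromosome order) in the 12 libraries (columns, by variety and replicate). gene27291 and the unnamed transcript after it (+1) are at or near 0 in the Akibae libraries and in Nijisseiki replicate 1, gene27292 is read mainly in CuiYu, and gene27290 is read in all 12 libraries.

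The 5 genes whose log2(CPM + 1) values followed gene27291 most closely over the 12 libraries, among 18490 candidates, had Pearson correlations of 0.971 to 0.987. These describe libraries that share depth and, within a variety, their source. A Maf-like protein gene (gene1611, r = 0.987) had 0, 0 and 1 reads in Akibae, 0, 149 and 142 reads in Nijisseiki, 75, 148 and 165 reads in SuCui NO.1 and 147, 143 and 118 reads in CuiYu. A gene named for a tRNA wybutosine enzyme (gene1603, r = 0.981) averaged 0.154 CPM in Akibae, 11.9 CPM in Nijisseiki, 18.0 CPM in SuCui NO.1 and 16.8 CPM in CuiYu. Like gene27291, both were near 0 in Nijisseiki replicate 1, with 0 reads each, and without it the Nijisseiki mean of gene1603 was 17.8 CPM.

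The 3-ketoacyl-CoA synthase 4 gene gene1612 (r = 0.971), of a family that lengthens fatty acids, averaged 0.255 CPM in Akibae, 1.63 CPM in Nijisseiki, 3.48 CPM in SuCui NO.1 and 3.22 CPM in CuiYu. gene1611, gene1603 and gene1612 lie on chromosome 15 between 1870659 and 1929303, whereas 9.48% of the candidates lie on that chromosome. The remaining pair, a Rust resistance kinase Lr10 gene on chromosome 1 (gene32684, r = 0.981) and a cyclophilin-type isomerase gene on chromosome 8 (gene28142, r = 0.978), kept reads in Akibae. gene32684 averaged 17.4 CPM in Akibae, 50.2 CPM in Nijisseiki, 75.2 CPM in SuCui NO.1 and 95.6 CPM in CuiYu. gene28142 averaged 7.27 CPM in Akibae, 22.7 CPM in Nijisseiki, 30.4 CPM in SuCui NO.1 and 46.9 CPM in CuiYu. In Nijisseiki replicate 1 they stood at 13.6 and 5.22 CPM, below each of the Akibae libraries.

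The glutamate dehydrogenase family had 13 genes, of which 7 had enough counts to be tested. gene27291 passed that filter only through varieties other than Akibae. Its share of the family's summed FPKM, a measure per transcript length, was 0% in Akibae, 0.483% to 34.0% in Nijisseiki, 18.9% to 41.2% in SuCui NO.1 and 36.0% to 40.8% in CuiYu. The family sum itself was 66.0 ± 23.4 FPKM in Akibae, 44.8 ± 7.30 FPKM in Nijisseiki, 63.9 ± 7.35 FPKM in SuCui NO.1 and 65.6 ± 5.97 FPKM in CuiYu (SD, n = 3 each). The sums overlapped between Akibae and each other variety, and in Akibae, where gene27291 was at 0, the other members made up a sum of 40.2 to 86.0 FPKM.

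The steadiest member was gene17203, named for an NADP-specific glutamate dehydrogenase, on chromosome 9. It averaged 67.0 ± 4.98 CPM in Akibae, 62.1 ± 3.97 CPM in Nijisseiki, 60.4 ± 2.34 CPM in SuCui NO.1 and 76.6 ± 6.81 CPM in CuiYu. No pair was called, with log2 differences of -0.34 to 0.15 and a smallest edgeR adjusted p of 0.088 for SuCui NO.1 against CuiYu.

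gene13246, a glutamate dehydrogenase 2 gene on chromosome 1 (4566411 to 4569279), was called in 1 pair. It had 98.9, 74.8 and 18.4 CPM in Akibae, 24.0, 7.30 and 12.9 CPM in Nijisseiki, 52.3, 14.9 and 27.6 CPM in SuCui NO.1, with 9.68, 4.44 and 13.0 CPM in CuiYu. The Akibae libraries lay above all CuiYu libraries but spread more than 5-fold among themselves. gene13246 was higher in Akibae than in CuiYu by 2.82 ± 0.71 log2 units (edgeR adjusted p = 0.021), a pair in which 15.1% of the genes tested were called. The call was lost without Akibae replicate 1 or 2 or CuiYu replicate 1 or 2 (adjusted p = 0.062 to 0.089). In the pair of Akibae against SuCui NO.1 it differed by 1.02 ± 0.66 log2 units (adjusted p = 0.34), and against Nijisseiki by 2.12 ± 0.69 log2 units (adjusted p = 0.17).

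Another glutamate dehydrogenase 2 gene, gene14068 on chromosome 7, stayed low, at 1.26, 0.595 and 4.88 CPM in SuCui NO.1 against 0.139, 0.226 and 0.221 CPM in CuiYu. It was called higher in SuCui NO.1 (3.47 ± 1.05 log2 units, edgeR adjusted p = 0.045), where SuCui NO.1 replicate 3 held most of the reads and the difference without it was 2.20. The call was lost in 10 of its 16 alternative fits: without SuCui NO.1 replicate 1 or 3, without any 1 CuiYu library, without Akibae replicate 1 or 2, without Nijisseiki replicate 3, with no filter on low counts and with a term for the replicate number (adjusted p = 0.055 to 0.18). The glutamate dehydrogenase 1 genes gene5821, gene23388 and gene5633 were called in no pair and stayed at or below 7.59 CPM in every library. gene5821 had 0 reads in Nijisseiki replicate 1 and 61 and 48 reads in replicates 2 and 3. The 6 genes left untested had at most 9 reads in any library, and gene20088 had none.

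gene656 lies on chromosome 3 from 25892038 to 25896424 on the plus strand. Its transcript is 2258 bases long, and the deposited annotation lists an asparagine synthase and a glutamine amidotransferase domain for it, the pair that marks glutamine-using asparagine synthetases. It averaged 1027 FPKM over the 12 libraries, rank 27 of all genes, beside gene2693 at 1045 FPKM in rank 26 and gene33679 at 1026 FPKM in rank 28. Within single libraries its rank ran between 14, in Nijisseiki replicate 1, and 288, in SuCui NO.1 replicate 3.

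The reads of gene656 numbered 20741, 15618 and 31970 in Akibae, 52709, 30248 and 24246 in Nijisseiki, 22300, 36611 and 8768 in SuCui NO.1 and 45149, 41657 and 49898 in CuiYu. Scaled to depth, it stood at 1598, 1246 and 2399 CPM in Akibae, 4584, 2186 and 1698 CPM in Nijisseiki, 1866, 2722 and 629 CPM in SuCui NO.1, with 3143, 3135 and 3678 CPM in CuiYu. All CuiYu libraries lay above all Akibae and SuCui NO.1 libraries, and Nijisseiki overlapped with every other variety. Replicates differed by 1.92 times in Akibae, 2.70 times in Nijisseiki, 4.33 times in SuCui NO.1 and 1.17 times in CuiYu, and the 12 libraries spanned 7.29 times.

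gene656 averaged 1748 ± 591 CPM in Akibae, 2823 ± 1545 CPM in Nijisseiki, 1739 ± 1052 CPM in SuCui NO.1 and 3319 ± 311 CPM in CuiYu (SD, n = 3 each). The order of the means was CuiYu, Nijisseiki, Akibae, SuCui NO.1, and no neighbours in it differed beyond their spread. Akibae was below CuiYu by a log2 difference of -0.93 ± 0.52 (edgeR adjusted p = 0.26), and SuCui NO.1 was below CuiYu by the same -0.93 ± 0.52 (adjusted p = 0.24). The other 4 differences were -0.69 for Akibae against Nijisseiki, 0.01 for Akibae against SuCui NO.1, 0.70 for Nijisseiki against SuCui NO.1 and -0.23 for Nijisseiki against CuiYu (edgeR adjusted p = 0.62, 1.0, 0.42 and 0.80). gene656 was thus called in 0 of 6 pairs by edgeR and in 0 by DESeq2, with 0 unadjusted p-values under 0.05 by either tool, where 2.53% of the genes tested were called for Akibae against Nijisseiki, 16.3% for Akibae against SuCui NO.1 and 12.4% to 17.4% for the remaining pairs.

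The fit on the 6 libraries of Akibae and CuiYu alone kept the difference at -0.93 and gave an edgeR adjusted p of 0.045. Without Nijisseiki replicate 1, its highest library, gene656 differed by -0.16 log2 units for Akibae against Nijisseiki, 0.15 for Nijisseiki against SuCui NO.1 and -0.77 for Nijisseiki against CuiYu (adjusted p = 0.95, 0.87 and 0.36). SuCui NO.1 replicate 3, the library with the lowest gene656 level, also had the lowest sum of epidermis markers (48.2 FPKM) and green-tissue markers (1462 FPKM) and the highest sum of vascular markers (11.6 FPKM) within SuCui NO.1. In Akibae and CuiYu, replicate 3 had both the highest gene656 level, at 2399 and 3678 CPM, and the highest vascular sum, at 19.6 and 5.70 FPKM. In Nijisseiki gene656 was highest in replicate 1 and the vascular sum in replicate 2. The part of cell makeup was not tested.

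The genes whose pattern came closest to gene656 over the 12 libraries, among 18490 candidates, had Pearson correlations of 0.919 to 0.941. They were a plant UBX domain protein 3 gene (gene9114), an RNA polymerase V subunit 5A gene (gene32364), a GABA transporter 1 gene (gene17361), an oxysterol-binding protein-related 1D gene (gene10588) and a V-type proton ATPase subunit E gene (gene29379), on 4 chromosomes, 10, 12, 16 and 14. gene17361, of a family that carries the amino acid GABA, averaged 5.27 CPM in Akibae, 15.6 CPM in Nijisseiki (8.73 CPM without replicate 1), 6.23 CPM in SuCui NO.1 and 18.0 CPM in CuiYu. gene29379, part of the vacuolar proton pump, averaged 807 CPM in Akibae, 1218 CPM in Nijisseiki, 692 CPM in SuCui NO.1 and 1500 CPM in CuiYu, and its lowest library, at 370 CPM, was again SuCui NO.1 replicate 3.

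Of the genes next to gene656, gene657, which has no Swiss-Prot name, averaged 4.14 CPM in Akibae, 8.92 CPM in Nijisseiki, 8.65 CPM in SuCui NO.1 and 9.16 CPM in CuiYu. It was lower in Akibae than in SuCui NO.1 (-1.06 log2 units, edgeR adjusted p = 0.032) and CuiYu (-1.14 log2 units, adjusted p = 0.024). The first call was lost without Akibae replicate 1 or 3 or SuCui NO.1 replicate 2 or 3, in the fit on the pair alone and with a term for the replicate number, and the second without Akibae replicate 1 or 3 or CuiYu replicate 1 or 2 (adjusted p = 0.05 to 0.10). gene655 on the other side, named for PMR5, a protein that affects cell-wall pectin in Arabidopsis, averaged 7.38 CPM in Akibae, 11.5 CPM in Nijisseiki, 5.44 CPM in SuCui NO.1 and 12.5 CPM in CuiYu, and was called in no pair.

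gene656 made up most of the asparagine synthetase transcripts in every library. Its share of the FPKM of the 7 genes was 86.9% to 89.5% in Akibae, 92.2% to 96.8% in Nijisseiki, 72.7% to 95.2% in SuCui NO.1 and 96.2% to 96.4% in CuiYu. gene31505, an asparagine synthetase 1 gene on chromosome 11 (5153407 to 5158195), had 85.2, 106 and 175 CPM in Akibae, 23.1, 61.7 and 40.5 CPM in Nijisseiki, 34.5, 64.1 and 37.5 CPM in SuCui NO.1, with 82.0, 54.9 and 63.5 CPM in CuiYu. All Akibae libraries exceeded all others, and the order by mean, Akibae, CuiYu, SuCui NO.1 and Nijisseiki, was not that of gene656.

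gene31505 was higher in Akibae than in SuCui NO.1 by 1.43 ± 0.39 log2 units (edgeR adjusted p = 0.031), while the difference of 1.54 ± 0.39 from Nijisseiki was not called (adjusted p = 0.073), nor was that of 0.87 ± 0.39 from CuiYu (adjusted p = 0.16). The call was lost without Akibae replicate 2 or 3 or SuCui NO.1 replicate 1 or 3, and in the fit on the pair alone (adjusted p = 0.05 to 0.11). The asparagine synthetase 2 genes gene14798 and gene35435, both on unplaced scaffolds, were called in no pair. gene14798 averaged 76.5 ± 27.1 CPM in Akibae, 74.0 ± 12.9 CPM in Nijisseiki, 76.9 ± 41.2 CPM in SuCui NO.1 and 39.0 ± 12.2 CPM in CuiYu. gene35435 averaged 24.6 ± 2.04 CPM in Akibae, 26.8 ± 4.61 CPM in Nijisseiki, 37.0 ± 19.4 CPM in SuCui NO.1 and 18.9 ± 5.55 CPM in CuiYu. In SuCui NO.1 replicate 3, where gene656 was lowest, both stood highest among the 12 libraries, at 123 and 59.3 CPM.

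The 3 untested asparagine synthetase genes were nearly silent, except that Nijisseiki replicate 1 held 40 reads of gene30811, which had 3 reads in the other 11 libraries together, and 23 reads of gene32753, which had 10 reads elsewhere. gene33517 had 2 reads in all. Near-identical copies may share reads, so levels of single copies are uncertain to that extent.

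**Figure D3:**
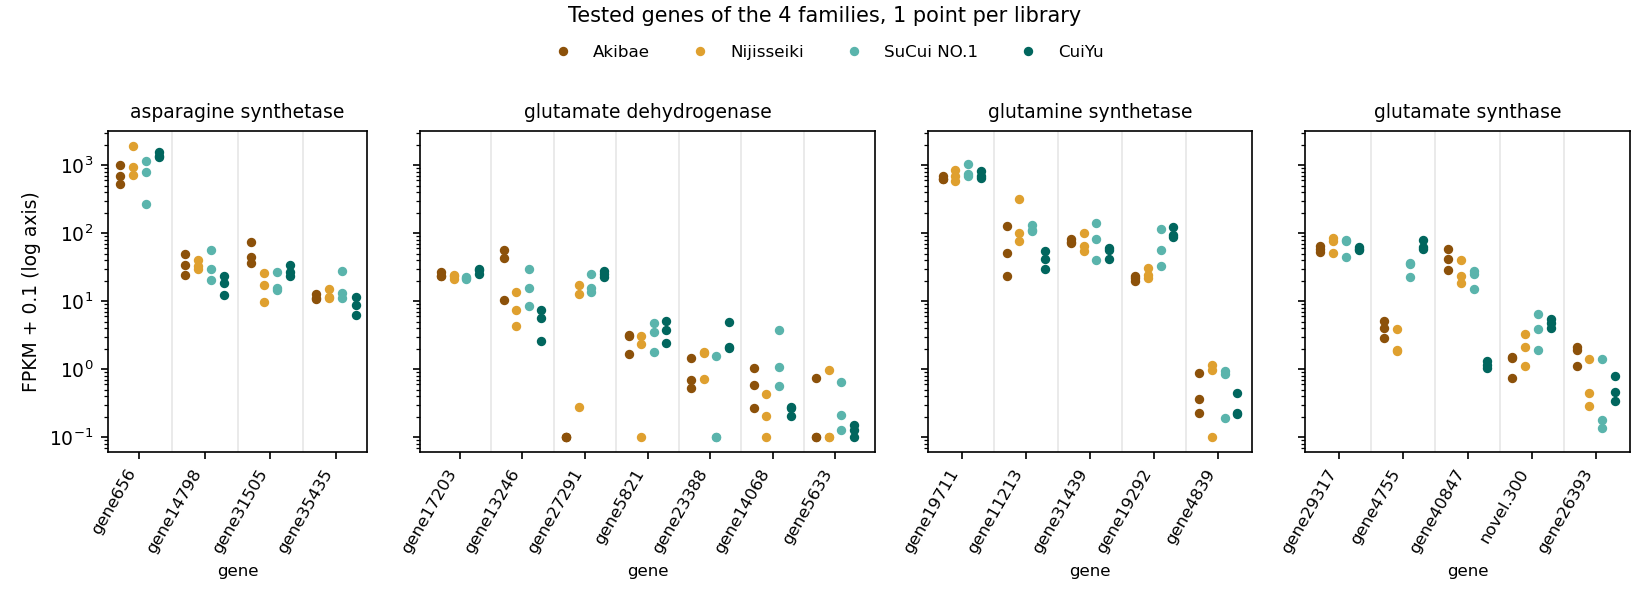
FPKM + 0.1 on a log axis (y) for each tested gene of the 4 families (x), with 1 point per library and colours for the 4 varieties. Within the asparagine synthetases gene656 stands highest in all libraries, gene27291 lacks reads in Akibae, and gene4755 and gene40847 run opposite ways across the glutamate synthase panel.

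Among 7 glutamine synthetase genes, 5 were tested, and gene19711, a cytosolic isozyme on chromosome 17, dominated. It averaged 1045 ± 75.7 CPM in Akibae, 1140 ± 205 CPM in Nijisseiki, 1332 ± 294 CPM in SuCui NO.1 and 1158 ± 139 CPM in CuiYu, which was 65.6% to 85.4% of the family's FPKM over the 12 libraries. No pair of varieties was called for it, with log2 differences between -0.35 and 0.20 and SE of 0.23.

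Another cytosolic isozyme, gene19292 on chromosome 9 (1065893 to 1068621), split the varieties. It had 26.4, 31.6 and 30.2 CPM in Akibae, 33.8, 41.3 and 29.6 CPM in Nijisseiki, 45.1, 160 and 77.8 CPM in SuCui NO.1, with 120, 130 and 167 CPM in CuiYu. Every Akibae and Nijisseiki library was below every SuCui NO.1 and CuiYu library. Akibae was lower than CuiYu by -2.24 ± 0.38 log2 units and Nijisseiki was lower than CuiYu by -1.99 ± 0.37 (edgeR adjusted p = 0.0029 and 0.0056), and both calls held in all 18 alternative fits. Akibae was lower than SuCui NO.1 by -1.68 ± 0.37 (adjusted p = 0.012) and Nijisseiki lower than SuCui NO.1 by -1.43 ± 0.37 (adjusted p = 0.028). The first of these was lost without Akibae replicate 1 and in the fit on the pair alone (adjusted p = 0.054 and 0.057). The second was lost without any 1 Nijisseiki library or SuCui NO.1 replicate 2 and in the fit on the pair alone (adjusted p = 0.053 to 0.15). SuCui NO.1 replicate 2 was the highest of its variety, and without it these differences shrank to -1.07, still called, and -0.81. Akibae and Nijisseiki were also picked later, at 120 and 135 days, against 105 days for SuCui NO.1 and CuiYu, and harvest day cannot be told apart from variety in these pairs. Epidermis marker sums differed alongside, at 14.7 to 18.0 FPKM in Akibae and 23.9 to 99.3 FPKM in Nijisseiki, against 48.2 to 80.3 FPKM in SuCui NO.1 and 182 to 198 FPKM in CuiYu, and their part was not tested.

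The other glutamine synthetase genes were called in no pair. gene31439, also cytosolic, averaged 115 CPM in Akibae, 111 CPM in Nijisseiki, 134 CPM in SuCui NO.1 and 80.8 CPM in CuiYu. gene11213, named for a nodule isozyme, averaged 97.6 ± 77.9 CPM in Akibae, 241 ± 195 CPM in Nijisseiki, 171 ± 18.2 CPM in SuCui NO.1 and 61.3 ± 18.9 CPM in CuiYu. Its Nijisseiki libraries stood at 465, 111 and 146 CPM, so that the mean without replicate 1 was 128 CPM, and in Akibae the mean without replicate 2 was 54.1 CPM. The smallest adjusted p was that of Nijisseiki against CuiYu, at 1.97 ± 0.63 log2 units (edgeR adjusted p = 0.059), and without Nijisseiki replicate 1 that difference was 1.07 (adjusted p = 0.22). The chloroplast isozyme genes were scarce in this skin: gene4839 did not exceed 1.88 CPM, and gene32301 had 46 of its 58 reads in Nijisseiki replicate 2. gene4539 had 2 reads in all.

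Glutamate synthase held the largest differences tested among the 4 families. It occurs in plants as a ferredoxin-dependent form, typical of green tissue, and an NADH-dependent form, typical of non-green and vascular tissue. The ferredoxin-dependent gene, gene29317, was called in no pair, at 327 ± 32.9 CPM in Akibae, 400 ± 97.7 CPM in Nijisseiki, 383 ± 112 CPM in SuCui NO.1 and 336 ± 16.6 CPM in CuiYu. The NADH-dependent form had 4 genes, and the copy that was read most differed between varieties.

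gene4755 lies on chromosome 1 (2204095 to 2214809), with no protein domain listed in the deposited annotation. It had 29.4, 20.5 and 38.2 CPM in Akibae, 28.8, 13.5 and 13.3 CPM in Nijisseiki, 272, 172 and 271 CPM in SuCui NO.1, with 480, 603 and 447 CPM in CuiYu. The SuCui NO.1 and CuiYu libraries did not overlap with those of Akibae and Nijisseiki, nor with each other. Akibae was lower than SuCui NO.1 by -3.02 ± 0.36 log2 units and lower than CuiYu by -4.12 ± 0.38 (edgeR adjusted p = 0.00037 and 7.6e-05). Nijisseiki was lower than SuCui NO.1 by -3.69 ± 0.37 and lower than CuiYu by -4.78 ± 0.39 (adjusted p = 0.00013 and 3.3e-05). These 4 calls held in all 18 alternative fits, and the same limits of harvest day and epidermis markers apply. SuCui NO.1 was also lower than CuiYu, picked on the same day after bloom, by -1.10 ± 0.34 (adjusted p = 0.047), but that call was lost in 8 of 18 fits: without Akibae replicate 1, without any SuCui NO.1 or CuiYu library, and with no filter on low counts (adjusted p = 0.051 to 0.15).

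gene40847, on an unplaced scaffold, ran the other way. It had 283, 192 and 393 CPM in Akibae, 274, 125 and 158 CPM in Nijisseiki, 188, 101 and 169 CPM in SuCui NO.1, with 7.03, 8.28 and 6.27 CPM in CuiYu. The CuiYu libraries were far below the rest, which overlapped apart from Akibae and SuCui NO.1. gene40847 was higher than in CuiYu by 5.33 ± 0.42 log2 units in Akibae, 4.69 ± 0.41 in Nijisseiki and 4.41 ± 0.40 in SuCui NO.1 (edgeR adjusted p = 2.7e-05, 5.1e-05 and 6.5e-05), and these 3 calls held in all 18 alternative fits. Akibae against SuCui NO.1 was not called (0.92 ± 0.35, adjusted p = 0.10).

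As a share of the FPKM of the 4 NADH-dependent genes, gene40847 held 85.5% to 87.4% in Akibae, 74.5% to 89.0% in Nijisseiki, 34.9% to 39.8% in SuCui NO.1 and 1.41% to 1.49% in CuiYu. gene4755 held 7.59% to 8.27% in Akibae, 6.42% to 8.36% in Nijisseiki, 51.2% to 57.1% in SuCui NO.1 and 90.9% to 92.2% in CuiYu. Summed over the 4 genes, the level was 49.7 ± 16.7 FPKM in Akibae, 32.6 ± 11.1 FPKM in Nijisseiki, 58.5 ± 14.3 FPKM in SuCui NO.1 and 73.8 ± 11.9 FPKM in CuiYu (SD, n = 3 each), ranges that overlapped between Akibae and each other variety, while Nijisseiki, at 25.0 to 45.3 FPKM, did not overlap with CuiYu, at 64.3 to 87.2 FPKM. These shares rest on how reads were divided between copies, a rule that the sources used here do not give.

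**Figure D4:**
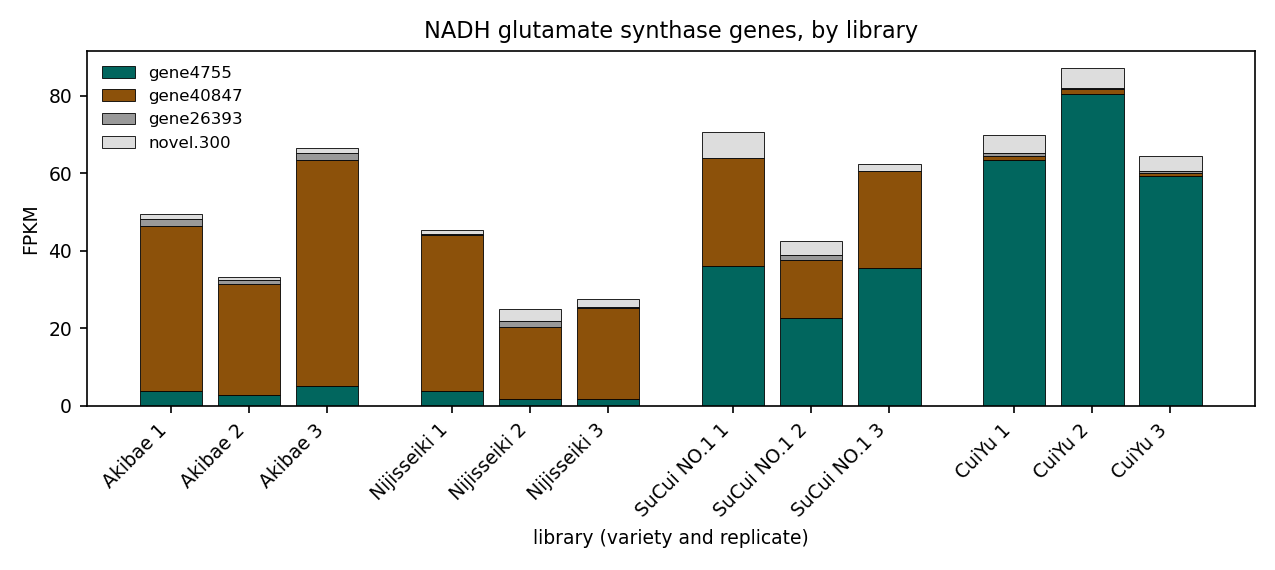
Stacked bars of the FPKM of the 4 NADH-dependent glutamate synthase genes in each library (x axis, by variety and replicate; y axis from 0). gene40847 makes up 85.5% to 87.4% of the bar in Akibae, gene4755 makes up 90.9% to 92.2% in CuiYu, and SuCui NO.1 holds both.

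The 2 minor copies were gene26393 and a short transcript outside the gene numbering (chromosome 1, 4856302 to 4858231), the latter without a listed protein domain. The short transcript averaged 1.25 ± 0.464 CPM in Akibae, 2.33 ± 1.24 CPM in Nijisseiki, 4.53 ± 2.61 CPM in SuCui NO.1 and 5.17 ± 0.800 CPM in CuiYu. It was called lower in Akibae than in SuCui NO.1 (-1.84 ± 0.55 log2 units, edgeR adjusted p = 0.043) and than in CuiYu (-2.03 ± 0.55, adjusted p = 0.030). The first was lost in 12 of 18 alternative fits and the second in 7 (adjusted p = 0.05 to 0.15), among them every fit without an Akibae or a CuiYu library, and for the first also those without Nijisseiki replicate 3 or SuCui NO.1 replicate 1 or 2. gene26393 had 13.0, 7.26 and 14.4 CPM in Akibae, 1.39, 9.54 and 2.45 CPM in Nijisseiki, 0.251, 9.37 and 0.574 CPM in SuCui NO.1, with 4.94, 1.73 and 2.58 CPM in CuiYu, and was called in no pair. Replicate 2 carried the level in both Nijisseiki and SuCui NO.1, where the means without it were 1.92 and 0.412 CPM, against 4.46 and 3.40 CPM with it.

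Around these families, 9 lists of nitrogen genes held 186 genes, 111 of them tested. A gene with at most 3 reads in 1 variety of a pair passed the filter on low counts through the other, so its calls there are no test and the counts of list members leave it out, as they do gene27291, which its Akibae reads chose. This left out gene19493, gene20651, gene20087 and gene5633 in some pairs and kept 106 to 108 genes a pair. The share of these called was 1.85% for Akibae against Nijisseiki, 13.1% for Akibae against SuCui NO.1, 16.8% for Akibae against CuiYu, 13.1% for Nijisseiki against SuCui NO.1, 15% for Nijisseiki against CuiYu and 19.8% for SuCui NO.1 against CuiYu. Over all genes with the same limit on reads it was 1.95%, 14%, 13.0%, 10.6%, 13.9% and 15.7% in the same order, so the share of nitrogen genes called was near that of all genes. Median log2 differences of the nitrogen genes lay between -0.17 and 0.35 in the 6 pairs, against -0.03 to 0.06 over all genes. By direction, 0.799% of all genes with that limit were higher and 1.15% lower in Akibae than in Nijisseiki, 6.60% and 7.45% in Akibae than in SuCui NO.1, and 6.15% and 6.87% in Akibae than in CuiYu. Likewise 5.63% were higher and 4.98% lower in Nijisseiki than in SuCui NO.1, 7.18% and 6.70% in Nijisseiki than in CuiYu, and 7.96% and 7.75% in SuCui NO.1 than in CuiYu. For Akibae against Nijisseiki 2 nitrogen genes were called, 0 without Akibae replicate 1 or 2, and 1 without Nijisseiki replicate 1 or 2 or any 1 CuiYu library. For Akibae against SuCui NO.1 14 became 9 without Akibae replicate 2. For Akibae against CuiYu 18 became 9 to 11 without Akibae replicate 2 or CuiYu replicate 1 or 2. For SuCui NO.1 against CuiYu 21 became 11 to 12 without CuiYu replicate 1 or 2.

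Nitrate and ammonium supply counted 25 genes, 14 of them tested, with at most 3 called in any pair, or 21.4% of the 14. Over all genes with over 3 reads in both varieties 1.95% to 15.7% were called in the 6 pairs. Its most abundant member, the high-affinity nitrate transporter 2.7 gene gene25123, averaged 399 ± 161 CPM in Akibae, 397 ± 170 CPM in Nijisseiki, 969 ± 946 CPM in SuCui NO.1 and 157 ± 42.9 CPM in CuiYu. Its SuCui NO.1 libraries ran from 91.1 to 1970 CPM, and without replicate 1 their mean was 468 CPM. The ammonium transporter 2 gene gene24475 averaged 28.0 ± 31.8 CPM in SuCui NO.1, with libraries from 9.29 to 64.6 CPM. It averaged 9.49 CPM in Akibae, 13.2 CPM in Nijisseiki and 1.62 CPM in CuiYu, whose libraries lay below those of every other variety. gene24475 was higher in SuCui NO.1 than in CuiYu by 4.10 ± 0.79 log2 units (edgeR adjusted p = 0.0059). Without SuCui NO.1 replicate 3 the difference was 2.58 and was still called. The ammonium transporter 1;3 gene gene20492 averaged 1.25 CPM in Nijisseiki and 6.65 CPM in SuCui NO.1, a difference of -2.39 ± 0.55 log2 units (adjusted p = 0.016) whose call was lost without SuCui NO.1 replicate 1 and in the fit on the pair alone (adjusted p = 0.058 and 0.10).

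The turnover of asparagine, aspartate and alanine counted 21 genes, 16 tested. Between SuCui NO.1 and CuiYu 4 were higher and 2 lower in SuCui NO.1, and in the other pairs 0 to 4 were called. The cytosolic aspartate aminotransferase gene gene17497, which makes the aspartate that asparagine synthetase uses, was the most abundant, at 290 CPM in Akibae, 228 CPM in Nijisseiki, 178 CPM in SuCui NO.1 and 185 CPM in CuiYu. gene19144 is named for an aminotransferase that also acts on prephenate in phenylalanine synthesis. It averaged 38.3 CPM in Akibae, 58.0 CPM in Nijisseiki (32.6 CPM without replicate 1), 78.4 CPM in SuCui NO.1 and 11.6 CPM in CuiYu. Its CuiYu libraries lay below those of every other variety. gene19144 was higher in SuCui NO.1 than in CuiYu by 2.76 ± 0.57 log2 units (edgeR adjusted p = 0.0081). gene3830, named for an L-asparaginase, the enzyme type that releases ammonium from asparagine, averaged 1.58 CPM in Nijisseiki and 51.8 CPM in CuiYu and was lower in Nijisseiki by -5.06 ± 0.88 log2 units (adjusted p = 0.0036). Without Nijisseiki replicate 1 the Nijisseiki mean was 0.672 CPM and the difference -6.24 (adjusted p = 0.0022).

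The GABA shunt, which turns glutamate into succinate by way of GABA, counted 13 genes, 11 tested. At most 2 were called in any pair, or 18.2% of the 11, where 1.95% to 15.7% of all genes were. Its most abundant gene, the GABA transaminase 3 gene gene40514, averaged 223 CPM in Akibae, 229 CPM in Nijisseiki, 204 CPM in SuCui NO.1 and 229 CPM in CuiYu. The succinate-semialdehyde dehydrogenase gene gene32467, which completes the shunt, averaged 16.0 CPM in Akibae, 18.8 CPM in Nijisseiki, 3.72 CPM in SuCui NO.1 and 17.7 CPM in CuiYu. It was higher in Nijisseiki than in SuCui NO.1 by 2.33 ± 0.43 log2 units and lower in SuCui NO.1 than in CuiYu by -2.24 ± 0.42 (edgeR adjusted p = 0.0050 and 0.0056).

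Proline, arginine and urea turnover counted 23 genes, 14 tested. Among the 13 with over 3 reads in both varieties, 4 were higher and 0 lower in SuCui NO.1 than in CuiYu. Over all genes with that limit 7.96% were higher and 7.75% lower. The limit left out gene20087, named for proline dehydrogenase 1, which was called lower in SuCui NO.1 without it. In the other pairs 0 to 2 genes of this list were called. Its most abundant gene, the proline synthesis gene gene4325 (delta-1-pyrroline-5-carboxylate synthase), averaged 155 ± 53.4 CPM in Akibae, 140 ± 87.8 CPM in Nijisseiki, 269 ± 184 CPM in SuCui NO.1 (163 CPM without replicate 1) and 51.5 CPM in CuiYu. A second gene of that enzyme, gene10160, averaged 13.2 ± 16.5 CPM in Akibae, with libraries from 3.30 to 32.2 CPM, and 0.398 CPM in CuiYu, and was higher in Akibae by 5.0 ± 1.16 log2 units (edgeR adjusted p = 0.015). That call was lost without Akibae replicate 2 or CuiYu replicate 2 or 3 (adjusted p = 0.059 to 0.065), and the difference ran over 3.17, without Akibae replicate 2, to 7.29, without CuiYu replicate 1.

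Amino acid transport counted 72 genes, 35 tested. Relative to SuCui NO.1, 1 was higher and 6 were lower in Akibae, and relative to CuiYu 2 were higher and 5 lower in Akibae, among the 33 with over 3 reads in both varieties. Over all genes with that limit 6.6% were higher and 7.45% lower in the first of these pairs, and 6.15% and 6.87% in the second. Of the 33, 1 was higher and 3 were lower in Nijisseiki than in SuCui NO.1, and 1 and 4 than in CuiYu. In SuCui NO.1 1 was higher and 3 were lower than in CuiYu, and in Akibae 0 were higher and 1 lower than in Nijisseiki. The most abundant, the lysine histidine transporter-like 8 gene gene36493, averaged 204 CPM in Akibae, 275 CPM in Nijisseiki, 464 CPM in SuCui NO.1 and 289 CPM in CuiYu. The amino acid permease 3 gene gene25554 averaged 69.0 CPM in Akibae and 6.34 CPM in CuiYu and was higher in Akibae by 3.44 ± 0.68 log2 units (edgeR adjusted p = 0.0067). gene19493, named for lysine histidine transporter 1, had 0 reads in Akibae, Nijisseiki and SuCui NO.1 and averaged 7.35 ± 1.29 CPM in CuiYu. It was at least 95.2-fold lower in Akibae, 97.1-fold lower in Nijisseiki and 96.4-fold lower in SuCui NO.1 than in CuiYu. It passed the filter only through CuiYu, so these limits are a description with no test.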

How the data were processed

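Fruit-skin RNA of 4 pear varieties, 3 libraries each, was analysed; the labels' protocols describe CTAB extraction of total RNA and the NEBNext Ultra RNA kit. The deposited table holds raw read counts per gene and FPKM values computed by the authors, with gene coordinates, Swiss-Prot and Pfam matches; aligner, counting tool, strand setting and genome build: not given in the sources used here. Positions are printed as deposited. The depth that the FPKM values imply was 0.920 to 1.11 times the count totals. A Chili variety named in the labels was not analysed here.

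From the counts, CPM were computed with TMM scaling. Every pair of varieties was tested with edgeR 4.0.16 (quasi-likelihood, R 4.3.3), 1 mean per variety over all 12 libraries, after filterByExpr, which left 26307 of 43732 genes (17425 not tested), with Benjamini-Hochberg adjustment over all genes tested and a threshold of 0.05. The common biological coefficient of variation was 0.413. The standard error was taken as |log2 fold change| over the root of F. Alternatives were RLE scaling, no filter, a filter at a mean of 1 CPM, DESeq2 1.42.0, the pair's libraries alone, a replicate block and each library left out in turn. The edgeR step was run on counts simulated with its own dispersion estimates and known folds. That run checks the code and says nothing on single calls or missed calls here. Swiss-Prot names (69.3% of genes have one) are best matches, not proof of function.

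The members and lists were chosen with earlier results of these data known. Named genes were the 2 members, all genes of the 4 families, their neighbours, the 5 most alike by correlation, and in each other list the most abundant member and the largest called fold in each direction at a mean of at least 1 CPM. List counts leave out a gene with at most 3 reads in 1 variety of the pair, a limit added after the values were seen. Tests of gene27291 are reported only for pairs without Akibae. The deviations of same-numbered Nijisseiki and SuCui NO.1 libraries had correlations of 0.23 to 0.40. The labels state no pairing, and whether the numbers pair was not tested. Bounds against 0 use 3 reads over the 3 libraries of a variety; bounds cover counting error only.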

Additional observations from a re-analysis of the deposited data

How the results depend on the processing

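The gene27291 differences kept their direction and stayed uncalled under every alternative; with 1 library left out they ranged over -1.5 to -0.29 (Nijisseiki against SuCui NO.1), -1.98 to -0.77 (Nijisseiki against CuiYu) and -0.78 to -0.31 log2 units (SuCui NO.1 against CuiYu). For gene656 with 1 library left out the ranges were -1.0 to -0.16 (Akibae against Nijisseiki), -0.41 to 0.47 (Akibae against SuCui NO.1), -1.23 to -0.73 (Akibae against CuiYu), 0.15 to 1.18 (Nijisseiki against SuCui NO.1), -0.77 to 0.03 (Nijisseiki against CuiYu) and -1.4 to -0.52 (SuCui NO.1 against CuiYu). Its near-zero Akibae against SuCui NO.1 difference reversed to -0.001 with RLE and with DESeq2, to -0.004 without Nijisseiki replicate 1 or CuiYu replicate 1 or 2, to -0.30 without Akibae replicate 3 and to -0.41 without SuCui NO.1 replicate 3, and Nijisseiki against CuiYu reversed to 0.03 without Nijisseiki replicate 3, never called. With the pair's libraries alone Akibae against CuiYu was called at -0.93 (edgeR adjusted p = 0.045). Genes called moved with the tool and the libraries fitted: DESeq2 called 1650 for Akibae against Nijisseiki, 5076 for Nijisseiki against SuCui NO.1 and 6209 for Nijisseiki against CuiYu, against 665, 3270 and 4050, and the pair's libraries alone gave 213 for Akibae against Nijisseiki, 6360 for Akibae against CuiYu and 1222 for Nijisseiki against SuCui NO.1, against 665, 3968 and 3270. With 1 library left out the counts ran over 292 to 929 (Akibae against Nijisseiki; moved by over 1.5 times without Akibae 1 or 2, Nijisseiki 2 or 3 or CuiYu 2), 2440 to 5462 (Akibae against SuCui NO.1; Akibae 1, 2), 2287 to 5016 (Akibae against CuiYu; Akibae 1, 2, CuiYu 1, 2), 2100 to 4638 (Nijisseiki against SuCui NO.1; Nijisseiki 2, 3), 2054 to 4633 (Nijisseiki against CuiYu; any CuiYu library) and 2307 to 5896 (SuCui NO.1 against CuiYu; any CuiYu library). Nitrogen genes called, without gene27291 and with over 3 reads in both varieties, were 7 with DESeq2 and 1 with the pair's libraries for Akibae against Nijisseiki, 36 with the pair's libraries and 28 with DESeq2 for Akibae against CuiYu, 7 with the pair's libraries for Nijisseiki against SuCui NO.1, and with DESeq2 31 for Nijisseiki against CuiYu and 36 for SuCui NO.1 against CuiYu; with 1 library left out they ran over 0 to 3, 9 to 19, 9 to 22, 10 to 20, 11 to 20 and 11 to 27 in the order of the pairs above. The causes of these moves were not tested, other than that leaving out a library or fitting 1 pair leaves fewer libraries. Of 42 calls of single genes, 27 held in every alternative fit and 15 were lost in at least 1, none with a reversed sign. Among them are calls of gene27293, gene23062, gene40965 and gene25042, which were chosen after their values were seen. The genes of lists outside the 4 families were named for their largest called fold. Their calls are therefore selected too. Of 18 correlations between the deviations of same-numbered libraries 6 exceeded 0.1 (range -0.24 to 0.40). All 3 did so between Nijisseiki and SuCui NO.1, and not all 3 in any other pair of varieties. Only same-numbered libraries were compared and the labels state no pairing, so whether the numbers pair was not tested. With the replicate block Nijisseiki against SuCui NO.1 gave 0.69 for gene656, -1.16 for gene27291 (edgeR adjusted p = 0.47 and 0.50) and 2989 genes called, and 0 of its 6 single-gene calls were lost. With the block, 1 nitrogen gene was called for Akibae against Nijisseiki in place of 2, and 4 of the 42 single-gene calls were lost, all in the other pairs.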

Other observations

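The 3 genes named for the arginine biosynthesis protein ArgJ, which moves acetyl groups between ornithine and glutamate, were chosen after their values were seen. gene23062 averaged 46.5 ± 4.09 CPM in Akibae, 51.5 ± 2.02 CPM in Nijisseiki, 2.59 ± 1.32 CPM in SuCui NO.1 and 1.09 ± 0.273 CPM in CuiYu (SD, n = 3 each). gene40965 averaged 0.722 ± 0.124 CPM in Akibae, 0.586 ± 0.194 CPM in Nijisseiki, 11.6 ± 1.18 CPM in SuCui NO.1 and 9.26 ± 1.41 CPM in CuiYu. The groups of libraries did not overlap in either gene between Akibae or Nijisseiki and SuCui NO.1 or CuiYu. Akibae and Nijisseiki were also picked later, at 120 and 135 days, against 105 days for SuCui NO.1 and CuiYu. Harvest day thus cannot be told apart from variety here, and the part of the epidermis markers was not tested. Both levels also rest on how reads were divided between the same-named copies, which was not tested.

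gene23062 was higher in Akibae than in SuCui NO.1 by 4.17 log2 units and than in CuiYu by 5.40. gene40965 was lower in Akibae than in SuCui NO.1 by -3.99 log2 units and than in CuiYu by -3.66. The third gene, gene25042, averaged 62.2 CPM in Akibae, 60.3 CPM in Nijisseiki, 80.6 CPM in SuCui NO.1 and 30.6 CPM in CuiYu, and SuCui NO.1 exceeded CuiYu by 1.40 log2 units. Since the genes were chosen after their values were seen, these differences are a description and no independent test.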
